A study of Mus musculus with 8 samples.

Results

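Splicing factors and spliceosome proteins were followed as 61 probe sets of 44 genes, out of 12422 probe sets on a mouse expression array. Each probe set sums up several short probes for a transcript. Members were those whose single gene symbol in the array annotation begins with Srsf or Sfrs, Hnrnp or Hnrp, Sf3a, Sf3b, Snrp or U2af, with Snrpn left out. The rule uses names only and no measured value. The RNA was total RNA from mouse testis in 4 groups of 2 arrays, labelled castaneus, domesticus, musculus and ssp after the words Mus musculus. No treatment, age or allele is labelled for any group. The labels call the 2 arrays of a group technical replicates and do not say how many animals gave the RNA, so every p-value here measures the spread between arrays and not between animals. What ssp stands for is not labelled, and it is used only as a group name. The series title names differential testis expression among house mice as the subject.

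The spliceosome removes introns from a new transcript. Small nuclear ribonucleoproteins (snRNPs) recognise the splice sites, the U2AF dimer marks the end of the intron, and the SF3A and SF3B complexes hold the U2 snRNP on the branch point. SR proteins, named for their arginine and serine repeats, bind exons and mostly favour their inclusion. hnRNP proteins coat the transcript and often favour skipping. Testis is known for its large number of alternatively spliced transcripts, and male germ cells stop transcribing as the sperm nucleus condenses.

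Values are the deposited intensities, in linear units with each array scaled to a common mean before deposit. For tests, a floor of 18.7, the 10th percentile over all arrays, replaced any lower value before log2 was taken. A probe set was tested if at least 2 of the 8 arrays reached their own 40th percentile. Of the 61 members, 51 probe sets of 42 genes passed this filter, as did 8874 probe sets of the whole array. Differences were tested with limma, a linear model with variances shared across probe sets, fitted to all 8874 at once. Calling a probe set took an F test over the 4 groups with a p under 0.05 after Benjamini-Hochberg adjustment, plus a span of at least 1 log2, that is, a 2-fold range between the lowest and highest group mean. Calls in a pair of groups took the same 2 thresholds for that pair's difference. Array medians ran from 151.2 to 182.6, and between 7.39% and 13.1% of the values of an array lay at or under the floor.

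The arrays carried the transcripts of testis cells. All 13 measured of 15 spermatid markers, Prm1 and Tnp1 among those listed, were bright enough to be tested, and none was called. Summed over these markers, the castaneus arrays had intensities of 296965 and 357916, the domesticus arrays 274604 and 264017, the musculus arrays 301381 and 239877, and the ssp arrays 326717 and 382122. The 10 measured of 11 Leydig cell markers summed to 19923 and 23862 in musculus and to between 6988 and 9564 in the other 6 arrays, and 2 of them were called. The 14 muscle markers, of which 3 were called, summed to 4517 or less on every array, and the 3 measured epididymis markers to 301.6 or less. Sertoli cell, spermatogonia and spermatocyte markers gave no call, and macrophage markers 1. In bulk RNA of this kind, fewer cells of a type and less RNA per cell cannot be told apart.

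Few splicing factor probe sets could be shown to differ in intensity among the 4 testis RNAs. Only 1 of the 51 tested members was called, a probe set of Srsf2 that was low in musculus, which is 1.96% of members against 1.76% of all tested probe sets. The members' share is near that background. An unadjusted F test p under 0.05 was reached by 2 members, or 3.92%, against 15.9% of all tested probe sets. The median span of the group means was 0.55 log2 over members and 0.81 over all tested probe sets, and 8 members, or 15.7%, spanned at least 1 log2 against 38.7% of all. Members were also brighter, with a median intensity of 752.8 against 296.9, and bright probe sets spanned less. All tested probe sets were therefore split by intensity into 3 classes of 2958. In the brightest class the median span was 0.53 for the 35 members and 0.53 for all. In the middle class it was 0.46 for 11 members and 0.75 for all, and in the dimmest 0.80 for 5 members and 1.33 for all. The share with an unadjusted F test p under 0.05 stayed lower for members within each class. It was 5.71% (2 members) against 14.4% of all in the brightest, 0 members against 15.2% in the middle, and 0 members against 18.2% in the dimmest. With 11 and 5 members, the counts of 0 in the middle and dimmest classes are too small to show a lower share.

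**Figure D1:**
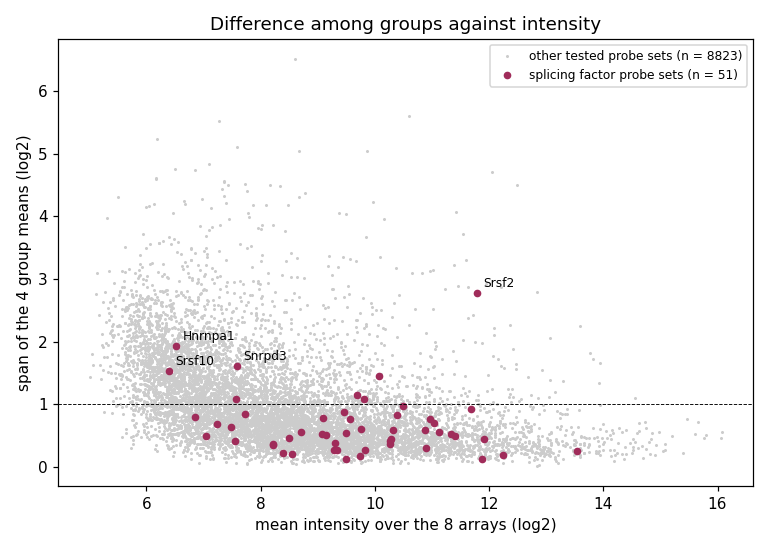
Span of the 4 group means (log2, vertical axis) against mean intensity over the 8 arrays (log2, horizontal axis) for 51 splicing factor probe sets in colour and the other tested probe sets in grey; the dashed line marks a span of 1. Most members lie under the line among bright probe sets, and Srsf2 stands above it at a span of 2.78.

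The arrays of 1 group did not always resemble each other more than those of another in these genes. Taken over the 51 members, arrays of the same group differed by 0.60 log2 (root mean square, mean of 4 pairs) and arrays of different groups by 0.67 (mean of 24 pairs). The closest 2 arrays of all, at 0.41, were domesticus replicate 1 and ssp replicate 1, and the farthest apart, at 0.97, were castaneus replicate 2 and musculus replicate 1. For a single member and a pair of groups, the 95% interval of the log2 difference reached a median of 0.72 to either side. Of the 306 such intervals, 137 lay wholly within 1 log2 of no difference. Another 3, the Srsf2 differences from musculus described next, lay wholly beyond 1 log2. The other 166 included a difference of 1 log2 and so left its size unsettled on either side of 2-fold.

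SR proteins gave the one member that was called. Srsf2, also known as SC35, is an SR protein that binds exonic enhancers. Its probe set 94017_s_at read 717.3 and 1165 in musculus, against 5898 and 6677 in castaneus, 4957 and 5832 in domesticus and 4544 and 5650 in ssp. Both musculus arrays lay far below the other 6, and the castaneus arrays lay above the rest by a small margin. The geometric mean was 914.2 in musculus (SD 0.49 log2, n = 2), against 6275 in castaneus, 5376 in domesticus and 5067 in ssp (SD 0.13, 0.17 and 0.22 log2, n = 2 each). The span was 6.86-fold (limma F test, adjusted p = 0.0324).

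Srsf2 was called in each pair that includes musculus and in no other pair. With it, 1 member (1.96%) was called in at least 1 of the 6 pairs, against 2.33% of all tested probe sets. It was 6.86-fold higher in castaneus than in musculus (log2 difference 2.78, SE 0.32; limma, adjusted p = 0.0233), a pair in which 0.947% of all tested probe sets were called. It was 5.88-fold higher in domesticus than in musculus (log2 difference 2.56, SE 0.32; limma, adjusted p = 0.0289), against a background of 0.744%. It fell in musculus relative to ssp by 2.47 on the log2 scale (SE 0.32; limma, adjusted p = 0.0361), against a background of 0.98%. No member was called between castaneus and domesticus, castaneus and ssp, or domesticus and ssp, where 0.676%, 0.349% and 0.687% of all tested probe sets were. The call rests on all 8 arrays: it was lost when any one of them, musculus or not, was left out. The span stayed between 2.43 and 3.13 log2 in those fits. Each of them leaves a group with 1 array, and calls over all probe sets became fewer too. Testing all 12422 probe sets without the filter also ended the Srsf2 call (limma, adjusted p = 0.0627). Without the filter 31 probe sets were called over the whole array, against 156 with it.

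The second Srsf2 probe set, 95791_s_at, did not show that difference. It read 544.6 and 722.2 in musculus, against 579.2 and 811.6 in castaneus, 475.4 and 682.9 in domesticus and 525.6 and 697.3 in ssp. All 4 groups overlapped, with a span of 0.27 log2 (limma F test, adjusted p = 0.951). The log2 intensity of the first probe set minus that of the second was 0.40 and 0.69 on the musculus arrays and between 3.02 and 3.38 on the other 6. The mean of that quantity was 2.62 lower in musculus than in the other 6 arrays, with a two-sided exact permutation p of 0.0714, the smallest that 2 arrays against 6 allow by this test. The group set apart in it was chosen after the values were seen. Both identifiers carry the suffix _s, which in the manufacturer's naming marks probes that can match more than 1 transcript. Which Srsf2 transcripts each reports is therefore not known from these values. Whether the probes match the sequence of all 4 groups equally was not tested.

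**Figure D2:**
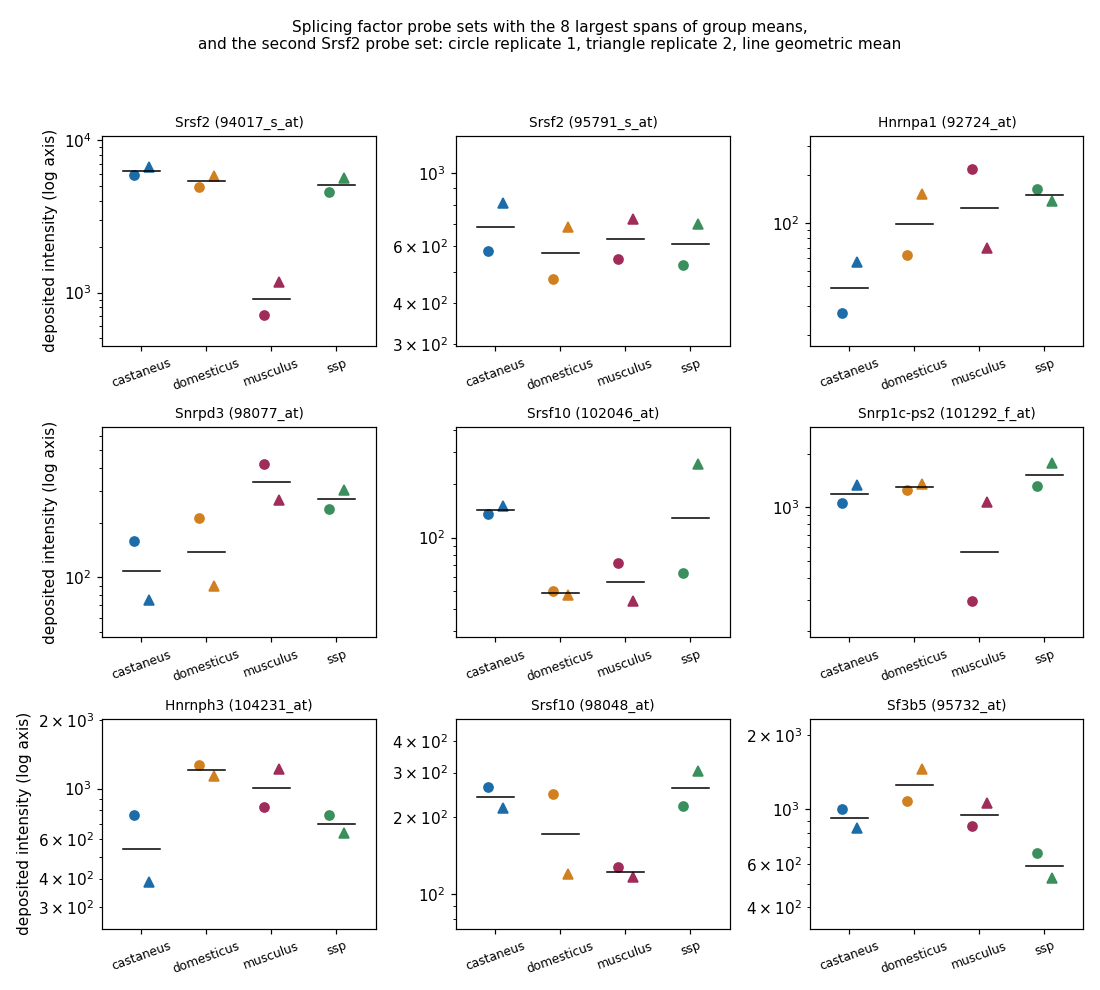
Deposited intensity (log axis) on each array for the 8 member probe sets with the largest spans and for the second Srsf2 probe set; circles are replicate 1, triangles replicate 2, and lines geometric means of the 2 arrays in castaneus, domesticus, musculus and ssp. Srsf2 94017_s_at is at 914.2 in musculus against 5067 or more in the other groups, while the replicates of most other panels spread over much of the range between groups.

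The promoters of the genes behind the 4 largest spans are given below, since these are the members a reader would look up first. Each runs from 250 bases before to 50 bases after the gene's start in RefSeq, build GRCm38.p6, written 5′ to 3′ on the gene's strand. Srsf2 is at chr11:116853045-116853344 on the minus strand. Hnrnpa1 is at chr15:103240147-103240446, Snrpd3 at chr10:75517792-75518091 and Srsf10 at chr4:135855821-135856120, all on the plus strand. The assembly is that of the C57BL/6J strain, so it is not the sequence of the mice measured. Capitals mark 7 motifs, searched on both strands with overlaps allowed: the core promoter box TATAAA, the NF-Y box CCAAT, the Sp1 (GC) box GGGCGG, the ETS motif ACTTCCGG, the YY1 motif GCCATNTTG, the cyclic AMP response motif TGACGTNA and the E-box CACGTG.
Srsf2: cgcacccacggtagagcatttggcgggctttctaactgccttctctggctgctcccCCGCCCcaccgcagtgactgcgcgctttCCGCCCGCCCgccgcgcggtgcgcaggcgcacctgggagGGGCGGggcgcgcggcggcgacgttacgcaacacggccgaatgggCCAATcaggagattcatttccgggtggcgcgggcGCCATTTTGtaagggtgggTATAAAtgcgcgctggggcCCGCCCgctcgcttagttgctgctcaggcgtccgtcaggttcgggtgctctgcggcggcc
Hnrnpa1: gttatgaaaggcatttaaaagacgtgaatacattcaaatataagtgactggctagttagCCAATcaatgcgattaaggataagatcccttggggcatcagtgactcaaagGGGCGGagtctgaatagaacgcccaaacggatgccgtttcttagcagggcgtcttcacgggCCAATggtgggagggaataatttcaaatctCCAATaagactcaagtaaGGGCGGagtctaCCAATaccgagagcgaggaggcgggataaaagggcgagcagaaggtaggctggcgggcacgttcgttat
Snrpd3: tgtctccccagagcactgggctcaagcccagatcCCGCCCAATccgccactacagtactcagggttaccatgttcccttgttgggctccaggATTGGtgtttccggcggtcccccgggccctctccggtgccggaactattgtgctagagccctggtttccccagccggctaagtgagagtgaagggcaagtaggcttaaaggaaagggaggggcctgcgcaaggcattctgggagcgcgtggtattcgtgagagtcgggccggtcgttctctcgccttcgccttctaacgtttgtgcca
Srsf10: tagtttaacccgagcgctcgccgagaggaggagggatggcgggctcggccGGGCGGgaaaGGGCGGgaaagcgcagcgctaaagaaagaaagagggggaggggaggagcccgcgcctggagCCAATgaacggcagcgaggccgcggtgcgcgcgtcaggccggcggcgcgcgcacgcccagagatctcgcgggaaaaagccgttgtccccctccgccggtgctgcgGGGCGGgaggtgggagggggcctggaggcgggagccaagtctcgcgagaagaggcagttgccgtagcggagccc

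The Srsf2 window held 1 core promoter box, 1 NF-Y box, 5 GC boxes and 1 YY1 motif. Srsf10 held 1 NF-Y and 3 GC boxes, Hnrnpa1 4 NF-Y and 2 GC boxes, and Snrpd3 2 NF-Y boxes and 1 GC box. The ETS, cyclic AMP and E-box motifs were in none of the 4 windows. Over the 27025 genes with a promoter in the table, taking the first window of each, 14.2% held the core promoter box, 37.9% the NF-Y box, 35.9% the GC box and 2.65% the YY1 motif. The ETS motif stood in 4.0%, the cyclic AMP motif in 3.08% and the E-box in 7.24%. The table has a promoter for 38 of the 44 member genes, of which 5, 18, 26 and 3 held the first 4 of these and 7, 4 and 3 the others. Member promoters had a median G and C content of 60.2%, against 52.7% over all. A match is a run of letters and not a measured binding site.

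Of the other SR proteins, Srsf10, which represses splicing when dephosphorylated, differed most, by both of its probe sets and without passing the test. Probe set 102046_at read 134.5 and 149.2 in castaneus, 50.5 and 47.9 in domesticus, 71.6 and 44.4 in musculus, and 63.5 and 258.1 in ssp. The castaneus arrays lay above those of domesticus and musculus, and the 2 ssp arrays lay on either side of castaneus (span 1.53 log2; limma F test, adjusted p = 0.429). Probe set 98048_at read 264.3 and 217 in castaneus, 247 and 120.3 in domesticus, 127.6 and 117 in musculus, and 221.1 and 305.3 in ssp. By this probe set musculus lay below castaneus and ssp without overlap, while by the first it overlapped ssp (span 1.09; limma F test, adjusted p = 0.42).

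The remaining 9 tested SR probe sets, of Srsf1, Srsf3, Srsf4, Srsf5, Srsf6, Srsf9 and Srsf11, spanned 0.30 to 0.69 log2, and none was called. Srsf1, the first SR protein described, read 208.8 and 186.8 in castaneus by probe set 160539_at and between 105.7 and 169.9 on the other 6 arrays. Its probe set 104586_at did not share that order, at 114.2 and 119.5 in castaneus against 108.3 to 176.6. Srsf4 likewise differed by probe set: 104754_at was lowest in castaneus, at 1067 and 950.2, and 102093_f_at had its lowest mean in domesticus, at 228.7 and 288.5.

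Srsf3, which regulates its own splicing, read 711.4 and 663.5 in castaneus by probe set 101004_f_at and between 405.2 and 623.1 elsewhere. Srsf5 was lowest in ssp, at 1082 and 1044 against 1088 to 1520. Srsf11 was lowest in musculus, at 1031 on both arrays against 1173 to 1666. In each of these the array order was complete for 1 group, but the spans of 0.53, 0.41 and 0.44 log2 did not pass the test (limma F test, adjusted p = 0.68, 0.672 and 0.72). Srsf6, an SR protein that binds exonic enhancers, showed a spread within groups as wide as that between them, with 581.2 and 1018 in domesticus and 617 and 1140 in musculus.

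Among hnRNP proteins, 17 tested probe sets of 14 genes spanned 0.21 to 1.93 log2, and none was called (lowest adjusted p by limma's F test, 0.378). Hnrnpa1, which opposes SR proteins at many exons, read 27.3 and 56.8 in castaneus, 63 and 151.7 in domesticus, 218.3 and 69.9 in musculus, and 162.6 and 137.6 in ssp. Both castaneus arrays lay below the other 6, and replicates of castaneus, domesticus and musculus each differed by more than 2-fold. The span was 1.93 log2 (limma F test, adjusted p = 0.43).

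Hnrnph3, a relative of the G-run binding hnRNP H, read 762 and 385.3 in castaneus, 1271 and 1138 in domesticus, 830.5 and 1225 in musculus, and 763.1 and 634.2 in ssp (span 1.15 log2; limma F test, adjusted p = 0.396). The castaneus and ssp arrays all lay below those of domesticus and musculus. Hnrnpdl, a paralogue of hnRNP D, read 2004 and 2279 in castaneus by probe set 96083_s_at, against 1251 and 1677 in domesticus, 1061 and 1572 in musculus and 919.6 and 1301 in ssp. Castaneus was above every other array by this probe set (span 0.97; limma F test, adjusted p = 0.425). By probe set 96084_at it was not, at 143.8 and 192.1 in castaneus against 153.1 to 241.4. One more Hnrnpdl probe set, 161372_f_at, was too dim to be tested, between 5 and 51.1.

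Hnrnpll, known in lymphocytes for switching CD45 splicing, read 1928 and 2684 in musculus, against 4275 and 4384 in castaneus, 2880 and 3849 in domesticus and 3289 and 3749 in ssp. Hnrnph1, the main hnRNP H, read 1413 and 1712 in musculus and between 1970 and 2800 elsewhere. Both musculus arrays were below the other 6 in these 2 genes, with spans of 0.93 and 0.71 log2 (limma F test, adjusted p = 0.378 and 0.439). Hnrnpa2b1, which also carries messenger RNAs in the cytoplasm, was lowest in musculus by probe set 93117_at, at 2153 and 2323 against 2398 to 3473, and had no group apart by probe set 93118_at. Hnrnpm was instead highest in ssp, at 2312 and 2295 against 1260 to 1962, with a span of 0.59 log2 (limma F test, adjusted p = 0.619). Hnrnpr, a close relative of hnRNP Q, was the most even of the family, between 318.9 and 423 on all 8 arrays (span 0.21). These genes, like others in the next paragraphs, are named for that order of arrays and were picked after their values were seen.

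The snRNP family, taken by the prefix Snrp, gave 8 tested probe sets of 8 genes, spanning 0.26 to 1.62 log2, with none called (lowest adjusted p by limma's F test, 0.362). Snrpd3, a subunit of the Sm ring that encircles most spliceosomal RNAs, read 158.1 and 74.9 in castaneus, 212.7 and 89.2 in domesticus, 418.9 and 265.5 in musculus, and 237.8 and 303.3 in ssp. The musculus and ssp arrays lay above the castaneus and domesticus arrays without overlap, and musculus was the highest group (span 1.62 log2; limma F test, adjusted p = 0.362). Snrp1c-ps2, an annotated pseudogene on chromosome 13, read 296.2 and 1066 in musculus and between 1061 and 1768 on the other 6 arrays, for a span of 1.45 log2. Only 1 of the 2 musculus arrays was low, and the other lay within the range of the rest (limma F test, adjusted p = 0.496). Its identifier has the suffix _f, for probes that can match a gene family.

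Snrpe and Snrpg, further Sm ring subunits, were highest in castaneus on both arrays. Snrpe read 1645 and 2037 in castaneus and between 886.2 and 1478 elsewhere (span 0.83 log2; limma F test, adjusted p = 0.463). Snrpg read 2971 and 3335 in castaneus and between 2138 and 2774 elsewhere (span 0.52; adjusted p = 0.595 by the same test). The U1 snRNP protein gene Snrpc and the U2 snRNP protein gene Snrpa1 had overlapping groups, at 1672 to 3192 and 440.3 to 755.1. Snrpb, the Sm B subunit, was even in all groups by its tested probe set, between 9366 and 14142 on the 8 arrays (span 0.26).

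**Figure D3:**
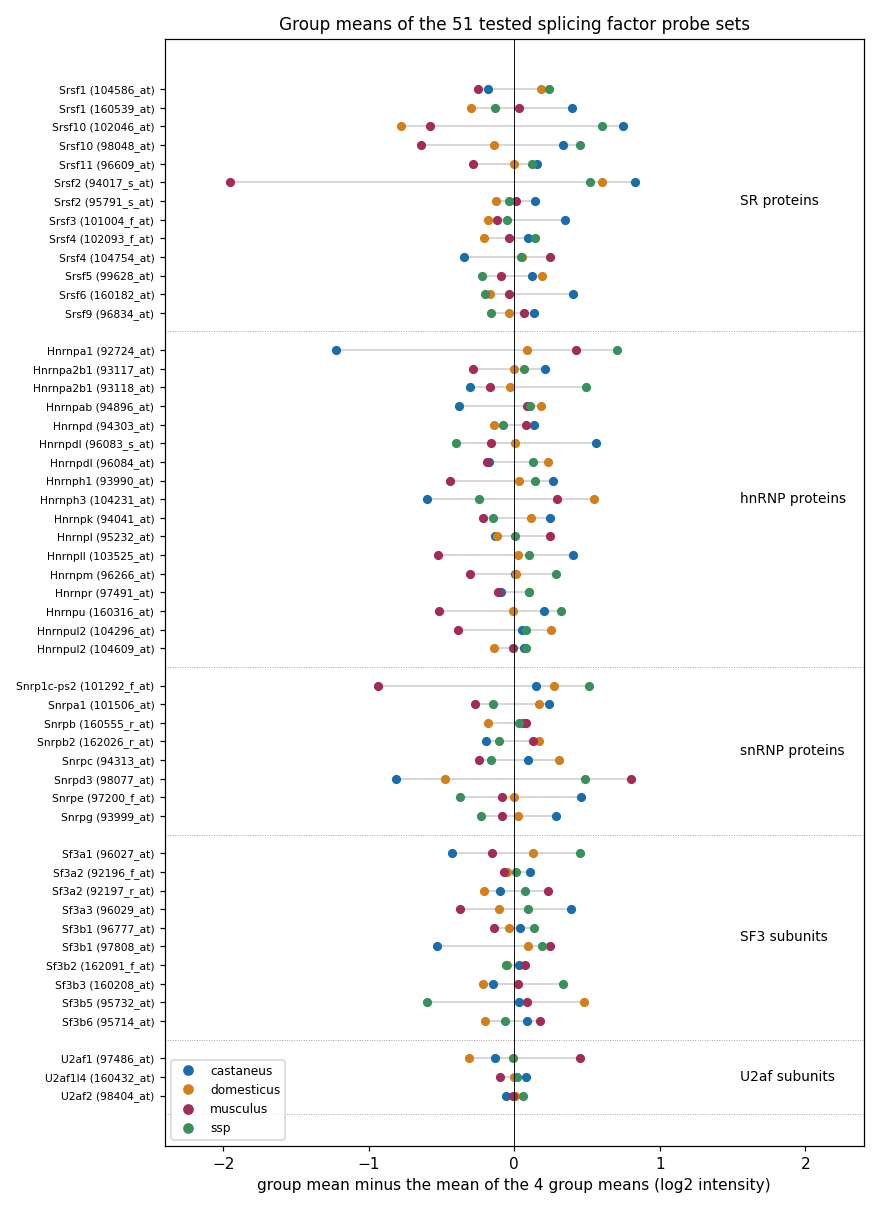
Group means of each of the 51 tested member probe sets, as log2 intensity minus the mean of the 4 group means (horizontal axis), with probe sets down the page by family and 1 coloured dot per group. Srsf2 94017_s_at in musculus lies far to the left, and most other members keep all 4 groups within 1 log2.

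The SF3 subunits gave 10 tested probe sets of 8 genes, with spans of 0.13 to 1.08 log2 and none called. Sf3b5, a small subunit of SF3B, read 1003 and 843 in castaneus, 1081 and 1454 in domesticus, 855.6 and 1058 in musculus, and 664.6 and 525.8 in ssp. Both ssp arrays lay below the other 6 and both domesticus arrays above them. Its span was 2.12-fold, with an unadjusted limma F test p of 0.0457 and an adjusted p of 0.303. Sf3a3, of the SF3A complex, read 2597 and 2624 in castaneus, 1734 and 1976 in domesticus, 1434 and 1649 in musculus, and 2477 and 1825 in ssp (span 0.76; adjusted p = 0.433 by limma's F test). Castaneus was highest and musculus lowest on both arrays.

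Sf3b2 and Sf3a2 had some of the smallest spans of all members. Sf3b2 read between 655.6 and 783 on all 8 arrays (span 0.13 log2). Sf3a2 read between 4096 and 5781 by probe set 92196_f_at (span 0.18) and between 2498 and 5921 by probe set 92197_r_at (span 0.44). Sf3a1 was highest in ssp, at 898.7 and 1022 against 454.9 to 862.4 elsewhere (span 0.88; limma F test, adjusted p = 0.521). Sf3b3 had replicates farther apart than its groups, at 1106 and 488.4 in musculus, and Sf3b6 read between 432.3 and 879.3 on the 8 arrays.

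Sf3b1, the subunit that contacts the branch point, showed a pattern that followed the replicate number and not the group. Probe set 97808_at read 612.7 on replicate 1 and 233 on replicate 2 of castaneus, 1262 and 268.3 in domesticus, 1325 and 314.4 in musculus, and 1374 and 282.6 in ssp. Replicate 1 was 2.63 to 4.86 times replicate 2 in every group, while the group means spanned 0.77 log2 (limma F test, adjusted p = 0.958). By probe set 96777_at Sf3b1 was even, between 567.4 and 782.6 on all 8 arrays. The labels do not say what a shared replicate number stands for.

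U2af2, the large U2AF subunit that binds the pyrimidine tract, leaned the same way by less, with replicate 1 at 1.15 to 1.58 times replicate 2 in each group. Its group means were the most even of all tested members, with geometric means of 3624 for castaneus, 3788 for domesticus, 3762 for musculus and 3934 for ssp (span 0.12 log2). U2af1l4, a paralogue of the small subunit, read between 776.3 and 965.2 on all arrays (span 0.18). U2af1, the small subunit that binds the AG at the intron's end, read 842.6 and 1256 in musculus and between 547.4 and 920.2 elsewhere (span 0.76; limma F test, adjusted p = 0.566).

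**Figure D4:**
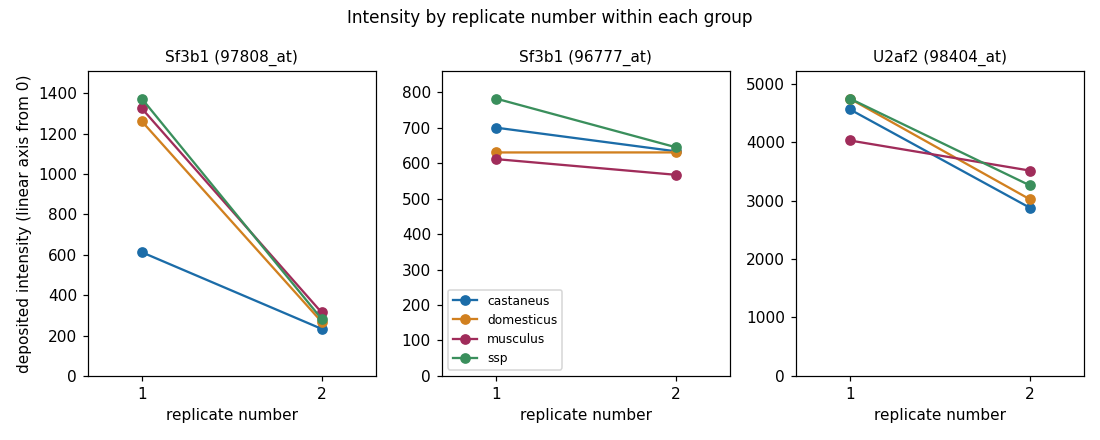
Deposited intensity (linear axis from 0) on replicates 1 and 2 of each group for 2 Sf3b1 probe sets and U2af2, with a line for each group. Sf3b1 97808_at is lower on replicate 2 by 2.63 times or more in all 4 groups, U2af2 by 1.15 to 1.58 times, and Sf3b1 96777_at by at most 1.21 times.

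No group stood apart for most splicing factors, and the highest counts were those of musculus on the low side and castaneus on the high side. For 22 members, or 43.1%, some group had both arrays beyond the other 6, against 39.8% of all tested probe sets, so standing apart as such was near the background. Both musculus arrays lay below the other 6 for 10 of the 51 members, or 19.6%, against 6.67% of all tested probe sets. The 10 were Srsf2 (94017_s_at), Srsf11, Hnrnpa2b1 (93117_at), Hnrnph1, Hnrnpll, Hnrnpu (160316_at), Hnrnpul2 (104296_at), Sf3a3, Sf3b1 (96777_at) and U2af1l4. Some were lowest by little: Sf3b1 read 611.7 and 567.4 in musculus against 630.4 or more elsewhere, and U2af1l4 spanned 0.18 log2. The second tested probe sets of Srsf2, Hnrnpa2b1, Hnrnpul2 and Sf3b1 did not have both musculus arrays lowest. That of Hnrnpul2, 104609_at, read 429.8 and 256.9 in musculus against 272.4 to 443.2. No member had both musculus arrays above the other 6, against 6.37% of all. Both castaneus arrays lay above the other 6 for 8 members, or 15.7%, against 5.74% of all. These were Srsf1 (160539_at), Srsf2 (94017_s_at), Srsf3 (101004_f_at), Hnrnpdl (96083_s_at), Hnrnpll, Sf3a3, Snrpe and Snrpg. The second tested probe sets of Srsf1, Srsf2 and Hnrnpdl did not have both castaneus arrays highest. Both castaneus arrays lay below for 3 members, Hnrnpa1, Hnrnpab and Srsf4 (104754_at), or 5.88%, against 5.43%. For domesticus the counts were 1 above (Sf3b5) and 0 below, against 6.13% and 5.47% of all. For ssp they were 2 above (Hnrnpm and Sf3a1) and 3 below (Sf3b5, Snrpg and Srsf5), against 6.42% and 5.17%.

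Within the brightest class of probe sets, both musculus arrays were lowest for 8 of 35 members, or 22.9%, against 8.59% of all 2958. Both castaneus arrays were highest for 7, or 20%, against 7.23%. The musculus count depended on the scaling of the arrays: with arrays centred on their medians it was 4, against 5.38% of all, with Hnrnph1, Hnrnpu, Srsf11 and Srsf2 still lowest. The castaneus count was 8 either way, with Hnrnph1 in place of Srsf2, against 7.08% of all after centring. With quantile normalization the musculus count was 10, against 6.54% of all, and the castaneus count 7, against 6.09%. Markers of cell types were also compared between each group and the mean of the others. Of all tested probe sets, 50.7% lay above that mean in musculus, 51.5% in castaneus, 49.2% in domesticus and 55.0% in ssp. Of the 13 spermatid markers, 2 lay above the other groups' mean in musculus, 11 did so in castaneus, 3 in domesticus and 11 in ssp. Of 10 Leydig markers, 10 lay above it in musculus, 1 in castaneus, 5 in domesticus and 2 in ssp. Of 6 tested spermatocyte markers, 3 lay above it in musculus, 3 in castaneus, 1 in domesticus and 5 in ssp. Of 7 tested spermatogonia markers, 5 did so in musculus, 3 in castaneus, 4 in domesticus and 4 in ssp. For 9 tested macrophage markers the counts were 9 in musculus, 2 in castaneus, 7 in domesticus and 3 in ssp. For 13 Sertoli cell markers they were 6, 9, 7 and 4 in the same order of groups. For 10 tested muscle markers they were 4, 7, 2 and 6, and for 2 tested epididymis markers 1, 0, 1 and 2. None of the spermatid, spermatocyte, spermatogonia or Sertoli cell markers was called. The part of these cell types in the result was not tested.

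**Figure D5:**
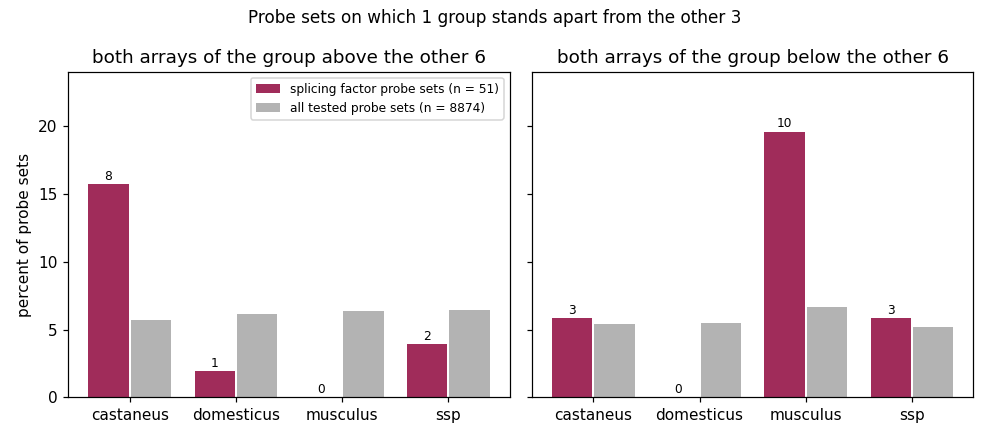
Percent of probe sets (vertical axis) on which both arrays of a group lie above (left) or below (right) the other 6 arrays, for 51 splicing factor probe sets in colour, with their number above the bar, and for all 8874 tested probe sets in grey. The tallest bars are castaneus above, with 8 members, and musculus below, with 10 members.

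The shifts behind these counts were small beside a 2-fold change. The median log2 difference between a group and the mean of the other 3 over the 51 members was 0.12 for castaneus, -0.00040 for domesticus, -0.11 for musculus and 0.092 for ssp. Over all 8874 tested probe sets it was 0.015 for castaneus, -0.0071 for domesticus, 0.0073 for musculus and 0.053 for ssp. By family, SR proteins were higher in castaneus for 11 of 13 probe sets of 9 genes (median 0.21). Of all tested probe sets 51.5% were higher in castaneus, and of those in the brightest class 55.6%. SR proteins were lower in domesticus for 9 of 13 (median -0.16), against 50.8% of all tested. The hnRNP proteins were lower in musculus for 12 of 17 (median -0.22), against 49.3% of all tested. They were higher in ssp for 13 of 17 (median 0.13), against 55.0%, a count that was 9 with arrays centred on their medians. SF3 subunits did not share the musculus direction, with 6 of 10 higher there (median 0.063). Median centring and quantile normalization left the family medians just given with the same sign. They were 0.28 and 0.21 for SR proteins in castaneus and -0.20 and -0.23 for hnRNP proteins in musculus. For SF3 subunits in musculus they were 0.088 and 0.070. Other family medians changed sign with median centring. In ssp that of SR proteins went from 0.058 to -0.056 and that of SF3 subunits from 0.11 to -0.0022. Over all 51 members, median centring moved the castaneus median to 0.19 and the ssp median to -0.022. It moved the medians of all probe sets to 0.087 and -0.060.

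Of 141 other genes of the splicing machinery, 102 were measured and 111 probe sets of 95 were tested. They include the Prpf proteins, the DEAH and DEAD box helicases, the SR protein kinases, the Lsm ring, and tissue regulators such as Celf and Mbnl proteins. None was called by limma's F test or in any pair, and 8, or 7.21%, had an unadjusted p under 0.05, against 1.76% called and 15.9% under 0.05 of all tested probe sets. Their median span was 0.57 log2, close to that of the members, and 23, or 20.7%, spanned at least 1, against 38.7% of all.

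The 6 widest spans among these genes were those of Rbm39, Cwc22, Syncrip, Txnl4a, Celf2 and Sart3, at 1.83 to 3.21 log2. Rbm39, a cofactor related to U2af2, read 14.5 and 32.1 in castaneus, 241.2 and 144.1 in domesticus, 433.1 and 118.2 in musculus, and 154.1 and 85.2 in ssp, with 1 castaneus array under the floor (limma F test, adjusted p = 0.164). A second Rbm39 probe set showed no such order, at 706.6 and 285.8 in castaneus against 338.5 to 701.9 elsewhere (span 0.47; adjusted p = 0.926 by the same test). Cwc22, which brings the exon junction complex to spliceosomes, was low in domesticus, at 43.5 and 26.7 against 89.3 to 268.4 elsewhere (adjusted p = 0.0923 by the same test). Syncrip, an hnRNP protein also called hnRNP Q, read 146.1 and 99.9 in domesticus and 147.8 and 151.6 in musculus, against 86.9 and 12.6 in castaneus and 14 and 42.6 in ssp. Of these values, the 12.6 of castaneus and the 14 of ssp lay under the floor. A second Syncrip probe set did not separate castaneus from domesticus and musculus, at 135.7 and 183.4 against 122.5 to 169.9. By it both ssp arrays lay below the other 6, at 110.3 and 25.8 (span 1.56 log2; limma F test, adjusted p = 0.478). Celf2, a neuronal and muscle splicing regulator, read 107.9 and 20.4 in ssp and between 103.6 and 243.2 elsewhere. Sart3, which recycles the U4/U6 snRNP, read 173.1 and 61.5 in ssp and between 170.4 and 408.9 elsewhere. By a second Sart3 probe set ssp was not apart, at 108.5 and 283.2 against 146.7 to 320.5 (span 0.73; limma F test, adjusted p = 0.818). Txnl4a, of the U5 snRNP, read 410 and 37.5 in castaneus, a gap between replicates wider than its span of group means. The probe sets of Syncrip, Celf2, Sart3 and Txnl4a with the widest spans had adjusted p values of 0.293 to 0.634 by limma's F test.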

How the data were processed

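Total RNA from testis was hybridised to Affymetrix arrays, per the labels. The authors deposited 1 linear intensity per probe set and array. All 8 value columns were matched to samples by name. The trimmed mean was 495.7 to 496.7 on every array, so the arrays had been scaled before deposit; how probes were summarised is not stated in any source used here. No further scaling was applied. The number of arrays limits the precision.

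Gene symbols are those of the platform annotation, updated by Entrez number through a RefSeq table of GRCm38.p6 (10817 of 10833 probe sets with 1 symbol matched; 396 had several). limma 3.58.1 in R 4.3.3 fitted 1 mean per group to floored log2 intensities, with 4 residual and 2.34 prior degrees of freedom. The 6 pairs were adjusted within each pair, first group minus second in alphabetical order. The exact permutation test used scipy 1.17.1. The fit was tested on simulated data.

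Named members are those called, the 8 largest and 4 smallest spans, the extremes of each pair, members with 1 group apart by 1 log2, and further probe sets of these genes; others were picked after their values were seen. Members and lists were chosen with earlier results of these data known. Alternatives covered the floor, filter, scaling, variance model, replicate block and leaving out each array.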

Additional observations from a re-analysis of the deposited data

How the results depend on the processing

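The call of 1 member, Srsf2, among the 4 groups stayed at 1 under both other floors, the filter at the 60th percentile, median centring, quantile normalization, the trended and robust variance model and no minimum fold (limma F test, adjusted p 0.00046 to 0.0465), and was 0 without a filter. It was lost in all 8 fits without 1 array. Calls over all probe sets were fewer in those fits too. The calls of members summed over the 6 pairs were 3 with all arrays, 0 without a filter, and 0 to 1 with 1 array left out, the 1 coming without either ssp array. No other member and no other splicing gene was called under any of these settings. With the replicate number as a block the F test still called 1 member (adjusted p = 0.0476 for Srsf2), the pair calls stayed at 3, and the calls over all probe sets numbered 42 with the block and 156 without. Replicate 1 minus replicate 2 correlated between groups at 0.026 to 0.17 across probe sets, and the labels do not tie equal numbers to a shared batch. The members with both musculus arrays lowest numbered 10, and 4 after median centring, an alternative chosen after seeing the data; the cause was not tested. The median member difference moved, for castaneus, to 0.189 with median centring; for ssp, to 0.0523 when filtered at the 60th percentile and -0.0221 with median centring. With 1 array left out it ran from 0.0873 to 0.152 in castaneus, -0.0421 to 0.0616 in domesticus, -0.177 to -0.0956 in musculus and 0.038 to 0.0935 in ssp. A group left with 1 array was assumed to vary like the others. Depth in the sequencing sense does not apply, and no background measure came with the intensities used here.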

Other observations

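The 10 members too dim to be tested include the widest differences outside Srsf2, given here as values only. Hnrnpu, a nuclear scaffold protein, read 97.5 and 118.4 in ssp by probe set 93761_at and between 5.1 and 57.6 elsewhere. By its tested probe set 160316_at it was lowest in musculus, at 168 and 130.9 against 173.7 to 305.6, and ssp was not apart. Srsf1 by probe set 101022_at read 28.8 and 17.5 in musculus and between 43.1 and 274.1 elsewhere. Snrpb by probe set 161335_r_at read 42.8 and 53 in castaneus and 2.5 to 26.5 elsewhere. Hnrnpc and Hnrnph2 were represented by a dim probe set alone, at 7.1 to 121.8 and 9.8 to 60.8.

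Replicate 1 was below replicate 2 in all 4 groups for 11 of the 51 tested members, or 21.6%, against 11.3% of all tested probe sets. Within the brightest of 3 intensity classes it was so for 10 of 35 members, or 28.6%, against 20.2%. Both Srsf2 probe sets, Hnrnpll, Hnrnpk, Snrpe and Srsf9 were among the 11. The opposite order held for 5 members, or 9.8%, against 12.7%: Hnrnpu, Sf3b1, Srsf3, Srsf4 and U2af2.

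The ETS motif stood in the promoter window of 7 of 38 member genes, or 18.4%, against 4.0% of 27025 genes. The GC box stood in 68.4% against 35.9%, and the cyclic AMP response motif in 10.5% against 3.08%. The NF-Y box stood in 47.4% against 37.9%, and the YY1 motif in 7.89% against 2.65%. The core promoter box, at 13.2% against 14.2%, and the E-box, at 7.89% against 7.24%, were near the share over all. The 27025 genes were not limited to those on the array. Member windows were richer in G and C, with medians of 60.2% and 52.7%, and these shares were not adjusted for it.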
